A study of Mus musculus with 5 samples.

Results

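The endothelial genes described here are 10 genes that mark the cells lining blood vessels: Pecam1, Cdh5, Cldn5, Kdr, Flt1, Tek, Tie1, Emcn, Plvap and Sox17. They were chosen by name, and all 10 were found among the 18044 genes of the deposited table. RNA was sequenced from cells of the pelvis-kidney junction, where the renal pelvis meets the kidney, of wild-type C57BL/6 mouse embryos at E18.5, shortly before birth. The junctions of all embryos were pooled, dispersed with collagenase and sorted by flow cytometry with an antibody against the HCN3 channel, with no transgene and no further treatment. The 2 libraries of the HCN3+ group are described in the labels as urinary tract pacemaker cells, and the 3 libraries of the HCN3- group as the remaining cells of the junction. Nothing in the labels says that libraries of 1 group came from separate pools of embryos, so a p-value here speaks only of the spread among the libraries, part or all of which may be technical.

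Endothelial cells are held together by adherens and tight junctions made of proteins such as VE-cadherin and claudins. They receive growth and survival signals through receptor tyrosine kinases for vascular endothelial growth factors (VEGFs) and angiopoietins. In the kidney they form the fenestrated capillaries of the glomerulus and of the peritubular network, which exchange fluid and solutes with the nephron.

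Reads assigned to genes numbered from 24588864 to 39034478 per library. Levels are given below as normalized counts, which are reads divided by a size factor of the library, and 3 reads correspond to a normalized count of 2.23 to 4.23. The deposited table compares a pair of unnamed sets of libraries. In all 18047 rows, at a relative tolerance of 0.01, its fold equals the mean of HCN3+ 2, HCN3- 1 and HCN3- 3 (set B) divided by the mean of HCN3+ 1 and HCN3- 2 (set A), so this division crosses the labels. The name of the table sets the negative against the positive cells, but neither it nor the column headers say which libraries make up which set. Whether the titles or the division give the sorted identity of each library cannot be told apart here, so values by label hold only as far as the titles do. The transcript of the sorted protein, Hcn3, had a normalized count of 0 in HCN3+ 1, 44.5 in HCN3+ 2 and 103, 32.2 and 41.9 in HCN3- 1, 2 and 3 (exact 2-sided permutation p = 0.3). The 2 libraries of set A also stood apart in markers of leukocytes, as given further below. The results are therefore given both by label and by the division of the deposited table.

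Every endothelial gene was low in HCN3+ 1 and HCN3- 2, intermediate in HCN3+ 2 and HCN3- 1, and highest in HCN3- 3. Together the 10 genes took 0.0225% of the gene reads in HCN3+ 1 and 0.0235% in HCN3- 2. They took 0.126% in HCN3+ 2, 0.193% in HCN3- 1 and 0.420% in HCN3- 3. These shares rest on 5543, 7575, 49336, 63239 and 140242 reads in the same order. In bulk samples, fewer cells of a type and less RNA per cell cannot be told apart.

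**Figure D1:**
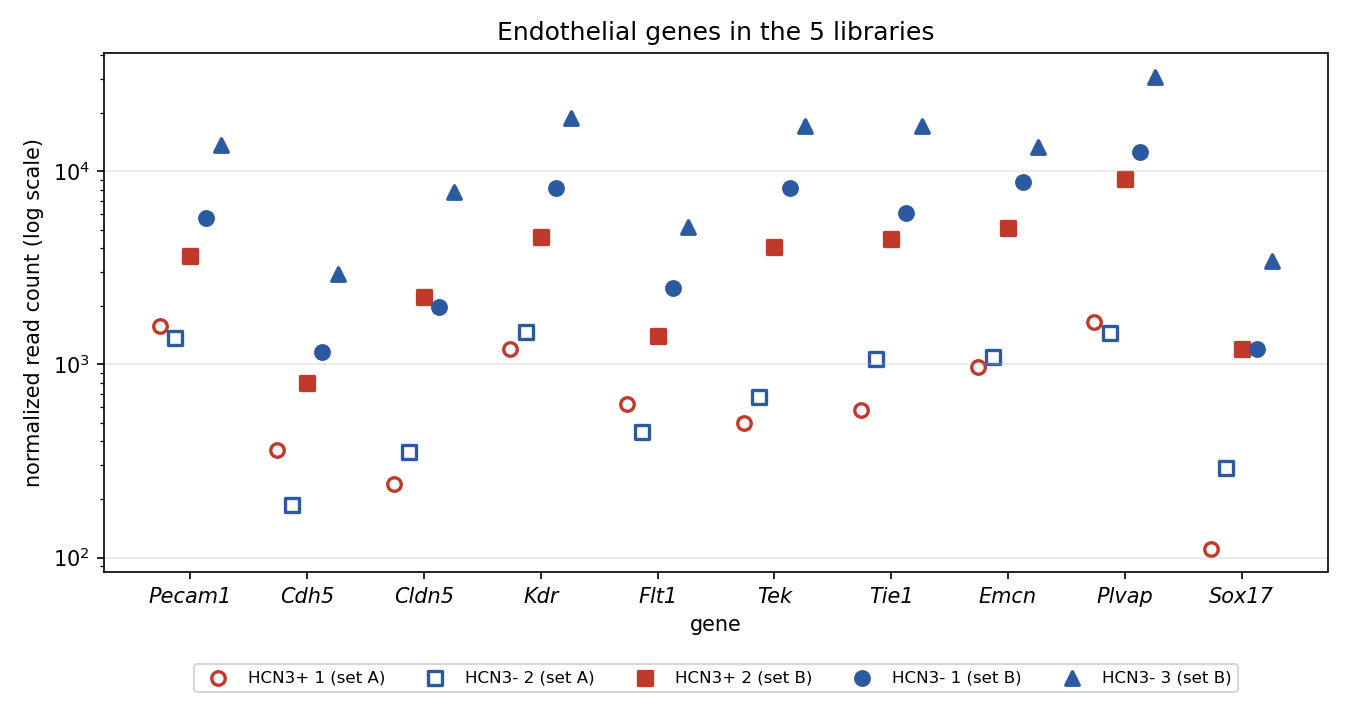
Normalized read count (vertical axis, log scale) of the 10 endothelial genes (horizontal axis), with 1 point per library. Each point is 1 library, red for HCN3+ and blue for HCN3-, open for set A and filled for set B. All 3 filled points lie above both open points for each of the 10 genes, and the triangle of HCN3- 3 is the highest for each.

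Among the junction genes, Pecam1 encodes an adhesion molecule of endothelial contacts that platelets and leukocytes also carry. Its normalized counts were 1573 in HCN3+ 1, 3658 in HCN3+ 2, 5741 in HCN3- 1, 1377 in HCN3- 2 and 13716 in HCN3- 3. Cdh5 encodes VE-cadherin, the adhesion protein of endothelial adherens junctions. It had normalized counts of 361 in HCN3+ 1 and 798 in HCN3+ 2, against 1163, 186 and 2925 in HCN3- 1, 2 and 3. Cldn5, the claudin of endothelial tight junctions, had 241 and 2235 in HCN3+ 1 and 2, and 1988, 351 and 7835 in HCN3- 1, 2 and 3. For all of these junction genes the labelled groups overlapped. HCN3- 2 lay below HCN3+ 2 for each of them, and for Cldn5 HCN3- 1 did as well. By contrast the lowest library of set B was 2.33 times the highest of set A for Pecam1, 2.21 times for Cdh5 and 5.67 times for Cldn5.

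The receptors followed the same order of libraries. Kdr, the main signalling receptor for VEGF-A, had normalized counts of 1201 and 4575 in HCN3+ 1 and 2, and 8192, 1467 and 18853 in HCN3- 1, 2 and 3. Flt1, a VEGF receptor that also exists as a soluble decoy, had 622 and 1407 in HCN3+ 1 and 2, and 2474, 448 and 5154 in HCN3- 1, 2 and 3. Between the lowest library of set B and the highest of set A the ratio was 3.12 for Kdr and 2.26 for Flt1. Tek, the angiopoietin receptor, had 495 and 4042 in HCN3+ 1 and 2, and 8175, 678 and 17166 in HCN3- 1, 2 and 3. Tie1, its partner without an established angiopoietin ligand of its own, had 578 and 4479 in HCN3+ 1 and 2, and 6058, 1062 and 17094 in HCN3- 1, 2 and 3. For Tek the lowest library of set B was 5.96 times the highest of set A, the widest gap of the 10 genes, and for Tie1 it was 4.22 times.

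The surface glycoprotein gene and the diaphragm gene had the same pattern. Emcn encodes endomucin, a sialomucin of capillary and venous endothelium. Its normalized counts were 973 and 5099 in HCN3+ 1 and 2, and 8780, 1097 and 13325 in HCN3- 1, 2 and 3. Plvap forms the diaphragms of fenestrae and caveolae. It had 1659 and 9098 in HCN3+ 1 and 2, and 12579, 1448 and 30964 in HCN3- 1, 2 and 3. Sox17, a transcription factor of arterial endothelium, had 111 and 1206 in HCN3+ 1 and 2, and 1196, 292 and 3423 in HCN3- 1, 2 and 3. The lowest library of set B was 4.65, 5.48 and 4.10 times the highest of set A for Emcn, Plvap and Sox17.

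In the genome (mm10, GENCODE M21) these genes lie on 7 chromosomes. Pecam1 is on chromosome 11 (106654217 to 106750628, minus strand), Sox17 on chromosome 1 (4490931 to 4497354, minus strand), Emcn on chromosome 3 (137341067 to 137432185) and Cldn5 on chromosome 16 (18776847 to 18778262). Kdr (75932827 to 75978458) and Flt1 (147561604 to 147726011) share chromosome 5, both on the minus strand. Tek (94739289 to 94874976, plus strand) and Tie1 (118471191 to 118490061, minus strand) share chromosome 4. Cdh5 (104101625 to 104144511, plus strand) and Plvap (71497765 to 71511752, minus strand) share chromosome 8. No pair on the same chromosome is adjacent.

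For description, the 250 bases before the genes' RefSeq starts (GRCm38.p6) were searched for short motifs of factor families that act in endothelium. Of the 10 genes, 6 matched the RefSeq promoters, Cldn5, Emcn, Flt1, Kdr, Tek and Tie1, and Cdh5, Pecam1, Plvap and Sox17 did not. The ETS type was searched as AGGAAG, and also in the variant form CGGAAG. The GATA type was searched as AGATAA, and the SOX type in the form AACAAT. Both strands were searched, and no 2 of the matches in these genes overlapped. AGGAAG was present in the windows of 3 of the 6 genes, Emcn, Flt1 and Tie1, against 29.5% of 32851 promoter windows of all genes. CGGAAG was present in 1 of 6, Tie1 (13.6% of all windows), AACAAT in 2 of 6, Emcn and Tek (9.42%), and AGATAA in 0 of 6 (9.99%). A match describes the letters of the window and is not evidence of binding. The windows of Emcn, Flt1 and Tek are printed because each holds a match and lies within 11 bases of the GENCODE start, and the capitals mark the matches.
Emcn, chr3:137340828-137341077, plus strand: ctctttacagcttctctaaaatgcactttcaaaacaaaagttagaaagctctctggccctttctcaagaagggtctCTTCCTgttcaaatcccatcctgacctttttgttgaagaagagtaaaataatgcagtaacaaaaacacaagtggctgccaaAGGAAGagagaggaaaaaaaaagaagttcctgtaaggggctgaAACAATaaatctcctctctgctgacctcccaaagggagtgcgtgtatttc
Flt1, chr5:147726012-147726261, minus strand: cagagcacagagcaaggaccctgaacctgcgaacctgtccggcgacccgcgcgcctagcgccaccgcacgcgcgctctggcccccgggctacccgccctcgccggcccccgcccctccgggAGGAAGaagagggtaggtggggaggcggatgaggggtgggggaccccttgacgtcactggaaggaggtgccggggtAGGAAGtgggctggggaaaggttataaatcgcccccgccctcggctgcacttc
Tek, chr4:94739039-94739288, plus strand: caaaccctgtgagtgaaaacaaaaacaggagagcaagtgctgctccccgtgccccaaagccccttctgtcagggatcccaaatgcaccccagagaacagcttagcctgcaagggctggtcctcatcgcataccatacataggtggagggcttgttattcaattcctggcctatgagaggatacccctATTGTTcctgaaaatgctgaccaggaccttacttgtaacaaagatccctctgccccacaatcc
In Emcn the matches to AGGAAG begin 174 bases (opposite strand) and 93 bases before the start, and AACAAT begins 50 bases before it. In Flt1 the matches to AGGAAG begin 129 and 53 bases before the start. In Tek the match to AACAAT begins 63 bases before the start, on the opposite strand.

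Compared by label, all 10 endothelial genes were lower in the mean of the HCN3+ libraries, but no difference passed the tests given below. The log2 fold change, HCN3+ over HCN3-, ran from -0.68 (SE 1.22) for Cdh5 to -1.69 (SE 1.63) for Tek, on the scale of log2(normalized count + 1). The median over the 10 genes was -1.22, beside -0.03 over all 16579 genes tested, of which 52.5% lay below 0. In limma 0 of the 10 genes passed at an adjusted p of 0.05, where 0% of all genes did, and 0 of the 10 had an unadjusted p under 0.05, where 0.947% of all genes did. DESeq2, edgeR and limma-voom on the recovered reads also called 0 of the 10, with 0 at an unadjusted p under 0.05 in each; of all genes DESeq2 called 0.0603% and the other two called 0%. The exact 2-sided permutation p was 0.4 to 0.8 over the 10 genes, in a design whose smallest possible p is 0.1. All 10 genes had overlapping labelled groups. The share of all genes with such an overlap was not counted, so this describes the values and does not set these genes apart.

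Kdr illustrates the spread behind this comparison. Its mean was 2888 ± 2386 (SD, n = 2) in the HCN3+ libraries and 9504 ± 8767 (SD, n = 3) in the HCN3- libraries. The SD was thus nearly as large as the mean in both groups. The fitted log2 difference was -1.38 (SE 1.20), and the adjusted limma p was 1.00. Plvap, the gene with the highest counts, averaged 5378 ± 5260 (SD, n = 2) against 14997 ± 14906 (SD, n = 3), a log2 fold change of -1.09 (SE 1.47).

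The size of the difference by label varied with the library left out. Without HCN3+ 1 the median log2 fold change of the 10 genes was -0.10, and Emcn, Plvap, Sox17 and Cldn5 lay above 0. Without HCN3- 3 it was -0.35, with Cdh5 above 0. It was -2.36 without HCN3+ 2, -1.01 without HCN3- 1 and -2.38 without HCN3- 2. Pecam1, Kdr, Flt1, Tek and Tie1 stayed below 0 whichever library was left out. Within set B, HCN3+ 2 was below HCN3- 3 for 10 of 10 genes and below HCN3- 1 for 8 of 10, the exceptions being Cldn5 and Sox17. Its level was 0.319 to 0.522 times the mean of HCN3- 1 and HCN3- 3. Within set A, HCN3+ 1 was below HCN3- 2 for 6 of 10 genes and above it for Pecam1, Cdh5, Flt1 and Plvap, with ratios from 0.382 for Sox17 to 1.94 for Cdh5. With the set as a covariate, a fit chosen after the data were seen, the median log2 fold change by label was -0.70. In this limma fit 0 of the 10 genes passed, and 0 of all genes tested did.

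Compared by the division of the deposited table, all 10 endothelial genes were higher in set B, by 5.22-fold for Pecam1 to 16.7-fold for Tek as ratios of means. In limma 10 of 10 passed as higher at an adjusted p of 0.05, where 9.88% of all 16579 genes tested did. The median log2 fold change, set B over set A, was 3.13 for the 10 genes and 0.07 for all genes tested. In 10 of 10 genes every library of set B lay above every library of set A, which was so for 26.1% of all genes tested. In either direction limma called 20.5% of all genes. DESeq2 and edgeR on the recovered reads called 10 of 10, where they called 27.6% and 17.0% of all genes in either direction. With limma-voom 5 of 10 were called, where it called 15.7% in either direction. Of the 10, only Emcn had an adjusted p under 0.05 in the authors' deposited table, as 6.09% of all genes there had in favour of set B. An unadjusted p under 0.05 in favour of set B stood beside 8 of the 10 in the authors' deposited table, and beside 10.8% of all genes.

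**Figure D2:**
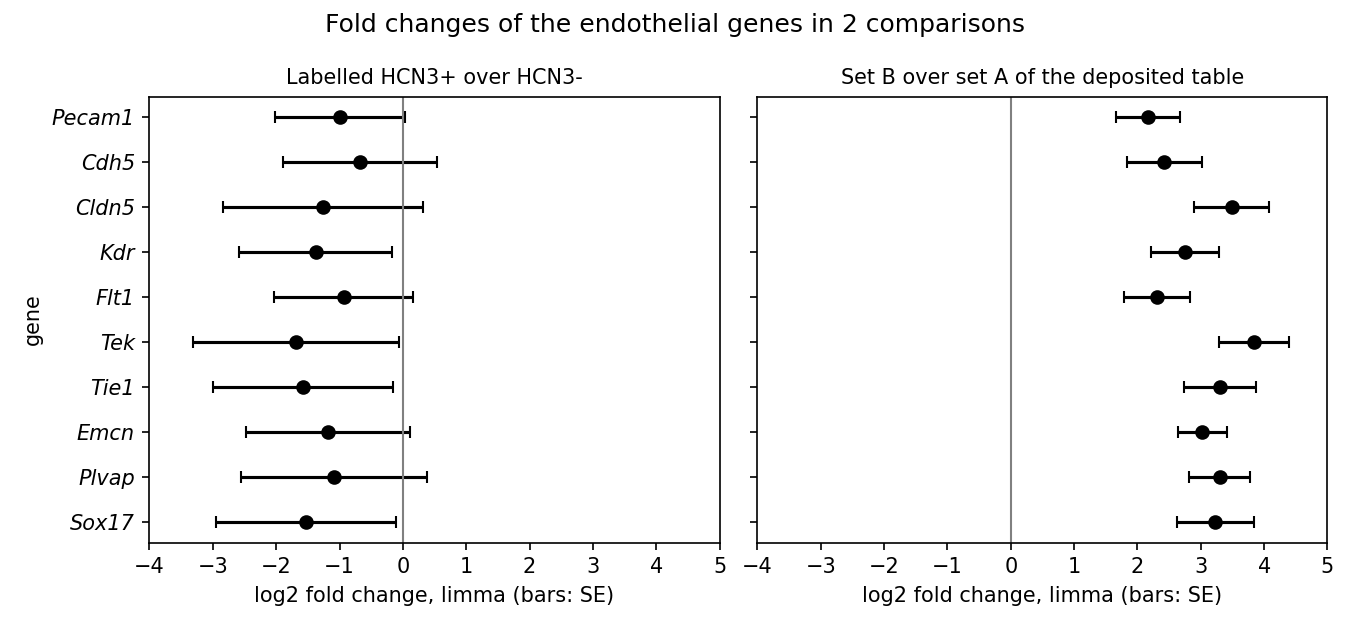
Log2 fold change in limma (horizontal axis) of each endothelial gene (vertical axis), by label on the left and by the sets of the deposited table on the right. Points are fitted values and bars are 1 standard error: by label the values run from -1.69 to -0.68, and between the sets from 2.16 to 3.83.

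By role, the receptors Tek and Tie1 and the junction gene Cldn5 had the widest differences between the sets, together with Plvap and Sox17. Tek had a mean of 586 ± 130 (SD, n = 2) in set A and 9794 ± 6710 (SD, n = 3) in set B, a log2 fold change of 3.83 (SE 0.55) with an adjusted limma p of 0.00452. Cldn5 had means of 296 ± 77.5 and 4019 ± 3307, with a log2 fold change of 3.48 (SE 0.60). For Tie1, Plvap and Sox17 the log2 fold changes were 3.30 (SE 0.57), 3.30 (SE 0.48) and 3.23 (SE 0.61).

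Emcn, whose set B libraries were the least spread of the 10 genes relative to their mean, averaged 1035 ± 87.6 (SD, n = 2) in set A and 9068 ± 4121 (SD, n = 3) in set B. The log2 fold change was 3.03 (SE 0.38), its adjusted limma p was 0.00282, and its adjusted p in the authors' deposited table was 0.00648. Kdr, Cdh5, Flt1 and Pecam1 had log2 fold changes of 2.75 (SE 0.54), 2.42 (SE 0.59), 2.31 (SE 0.52) and 2.16 (SE 0.51). Their adjusted limma p ran from 0.0137 to 0.0299. Whether the fold change differed between members was not tested.

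The number of calls between the sets varied with the library left out, for all genes as well as for the 10. Shares of all genes in these fits count calls in either direction, which were 20.5% with every library kept. Without HCN3+ 1, 0 of the 10 passed in limma (lowest adjusted p 0.0568) and 7.49% of all genes did, while the log2 fold changes of the 10 were 2.26 to 3.61. Without HCN3- 2, 4 of 10 and 17.1% of all genes passed, and the log2 fold changes were 1.95 to 4.06. Each of these fits has 1 library in set A, which is assumed to vary like set B. Without HCN3- 1, 6 of 10 and 10.4% of all genes passed, and without HCN3+ 2, 10 of 10 and 11.5%. Without HCN3- 3, the library with the highest levels, 10 of 10 and 17.0% passed, with log2 fold changes of 1.64 to 3.31. The median log2 fold change of the 10 genes lay between 2.71 and 3.43 over these 5 fits.

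HCN3- 3 was the highest library for 10 of the 10 endothelial genes, as it was for 19.3% of all genes tested. Its level was 1.92 times the mean of HCN3+ 2 and HCN3- 1 for Emcn and 3.71 times for Cldn5, with the others between. Among the 4326 genes with every library of set B above every library of set A, 36.8% were highest in HCN3- 3. The 9 podocyte markers took 1.55% of its gene reads against 0.0358% to 0.287% in the other libraries, and the 10 measured erythroid markers 0.196% against 0.00334% to 0.0127%. In HCN3- 3 the heme synthesis gene Alas2 alone supplied 50382 of the erythroid markers' summed normalized count of 60829. Podocytes are the filtering epithelial cells wrapped around glomerular capillaries. The part of these cell types in the endothelial level of HCN3- 3 was not tested.

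Per kilobase of exon sequence (GENCODE M21), Plvap had the highest level of the 10 genes in 5 of 5 libraries, with a mean of 5611 normalized counts per kilobase. Emcn followed with 2262 and Cldn5 with 1787. Tek, Tie1, Pecam1 and Kdr had close means of 1300, 1286, 1261 and 1158 per kilobase. Tek was above Tie1 in 1 of 5 libraries, and Tie1 above Pecam1 in 2 of 5. Tek, Tie1 and Pecam1 thus had no fixed order, but Pecam1 was above Kdr in 5 of 5 libraries. Emcn was above Cldn5, and Cldn5 above Tek, in 4 of 5 libraries each. Sox17, Cdh5 and Flt1 were lowest, with 304, 272 and 184 per kilobase. Kdr was above Sox17 and Cdh5 above Flt1 in 5 of 5 libraries, and Sox17 above Cdh5 in 4 of 5. The length is that of all annotated exons together, so a gene with a long or alternative end, such as Flt1 with 10961 bases, can be understated.

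Ratios to Cdh5 differed between genes and libraries. The ratio of Plvap to Cdh5 was 11.4, 10.8 and 10.6 in HCN3+ 2, HCN3- 1 and HCN3- 3, 7.77 in HCN3- 2 and 4.60 in HCN3+ 1. Tek to Cdh5 was 5.06, 7.03 and 5.87 in set B, 3.64 in HCN3- 2 and 1.37 in HCN3+ 1. The ratio of Sox17 to Cdh5 was 0.309 in HCN3+ 1, from 79 and 256 reads, against 1.03 to 1.57 in the other libraries. Within set B, Emcn to Cdh5 was 6.39, 7.55 and 4.56, and Cldn5 to Cdh5 was 2.80, 1.71 and 2.68. The ratios share Cdh5, which was itself 1.94 times higher in HCN3+ 1 than in HCN3- 2. Pecam1 and Flt1 changed the least relative to Cdh5, by 1.69 and 1.40 times between their highest and lowest libraries, while Pecam1 to Cdh5 was highest in HCN3- 2, at 7.39.

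Other endothelial genes mostly followed. Of 29 further general endothelial genes, 21 passed as higher and 1 as lower in set B in limma, with a median log2 fold change of 2.61. Counted in either direction, DESeq2 called 25 of them, edgeR 21 and limma-voom 14. The counts of these tools for every list below are likewise of either direction. Of all genes tested, limma called 9.88% as higher in set B and 10.6% as lower. In either direction DESeq2 called 27.6% of all genes, edgeR 17.0% and limma-voom 15.7%. An unadjusted limma p under 0.05 between the sets stood beside 5532 of all 16579 genes. These shares apply beside the counts of every list. Clec14a, a surface lectin of endothelium, was at 83.2 and 257 in set A and 1460, 2641 and 4602 in HCN3+ 2, HCN3- 1 and HCN3- 3 (log2 fold change 4.14, SE 0.62). Sox18, a relative of Sox17, had 230 and 266 in set A and 1455, 1556 and 3745 in set B (log2 fold change 3.04, SE 0.45). Ramp2, a co-receptor of the adrenomedullin receptor, and Ets1, an ETS-family transcription factor, had log2 fold changes of 2.84 (SE 0.32) and 2.53 (SE 0.32). The gene that passed as lower was Lyl1, a transcription factor of blood and endothelial cells, at 381 and 266 in set A and 23.7, 21.4 and 64.2 in set B (log2 fold change -3.27, SE 0.74).

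Genes of vessel subtypes were also higher in set B in most cases. Of 12 arterial genes 8 passed as higher and 0 as lower (DESeq2 called 9, edgeR 7 and limma-voom 6), among them the connexin genes Gja4 and Gja5 with log2 fold changes of 3.15 (SE 0.47) and 3.04 (SE 0.35). Hey1, a Notch target, and the chemokine gene Cxcl12 had 2.49 (SE 0.34) and 2.42 (SE 0.37). Of 11 measured venous and lymphatic genes, 7 passed as higher and 1 as lower, and DESeq2 called 8, edgeR 6 and limma-voom 4. The venous factor Nr2f2 had a log2 fold change of 2.58 (SE 0.33), the venous ephrin receptor gene Ephb4 2.05 (SE 0.30) and Reln, which encodes reelin, 3.38 (SE 0.57). The gene lower in set B was Lyve1, a hyaluronan receptor of lymphatic vessels and of some macrophages, at 1549 and 5779 in set A and 97.2, 146 and 80.0 in set B. Prox1, the defining factor of lymphatic endothelium and named here after its values were seen, was at 49.3 and 78.8 in set A and 66.0, 144 and 83.7 in set B.

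Of 12 genes of fenestrated and kidney capillaries, 8 passed as higher in set B and 2 as lower, the fatty acid receptor gene Cd36, which macrophages also express, and the urea transporter gene Slc14a1. DESeq2 and edgeR called 10 of the 12 and limma-voom 7. Igfbp3 had a log2 fold change of 3.31 (SE 0.40), Rgcc 2.82 (SE 0.52), Tspan7 2.50 (SE 0.35) and Ehd3, a gene of glomerular endothelium, 1.51 (SE 0.26). Of 12 vascular co-receptors and other receptors, 7 are also on the general endothelial or the arterial list, so the lists are not separate. On this list 8 passed as higher, 5 of them among the 7 shared genes, and 0 as lower (DESeq2 called 8, edgeR 7 and limma-voom 6), including Robo4 with 3.12 (SE 0.64), the phosphatase gene Ptprb, which acts on Tek, with 2.38 (SE 0.44), and Unc5b with 2.16 (SE 0.38).

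Among 10 measured ligands, 5 passed as higher in set B in limma and 0 as lower. DESeq2 called 7 of them, edgeR 4 and limma-voom 1. Figf, which encodes VEGF-D, was at 56.4 and 15.5 in set A and 547, 964 and 326 in HCN3+ 2, HCN3- 1 and HCN3- 3 (log2 fold change 4.18, SE 0.75). Vegfc, Apln, the ligand of the apelin receptor, and Bmp4 had log2 fold changes of 2.53 (SE 0.61), 2.77 (SE 0.64) and 2.73 (SE 0.63). Vegfa, the ligand of Kdr and Flt1 and named after its values were seen, had 2804 and 1411 in set A and 4471, 6301 and 20405 in set B, with an adjusted limma p of 0.0638. By label, limma, DESeq2, edgeR and limma-voom each called 0 genes of these vascular lists. Unadjusted limma p by label was under 0.05 for 1 of the 29 general endothelial genes and 2 of the 12 co-receptors and other receptors. S1pr1, the sphingosine 1-phosphate receptor gene, is counted in both. In the other vascular lists 0 genes had such a p, and over all genes tested 0.947% had one.

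**Figure D3:**
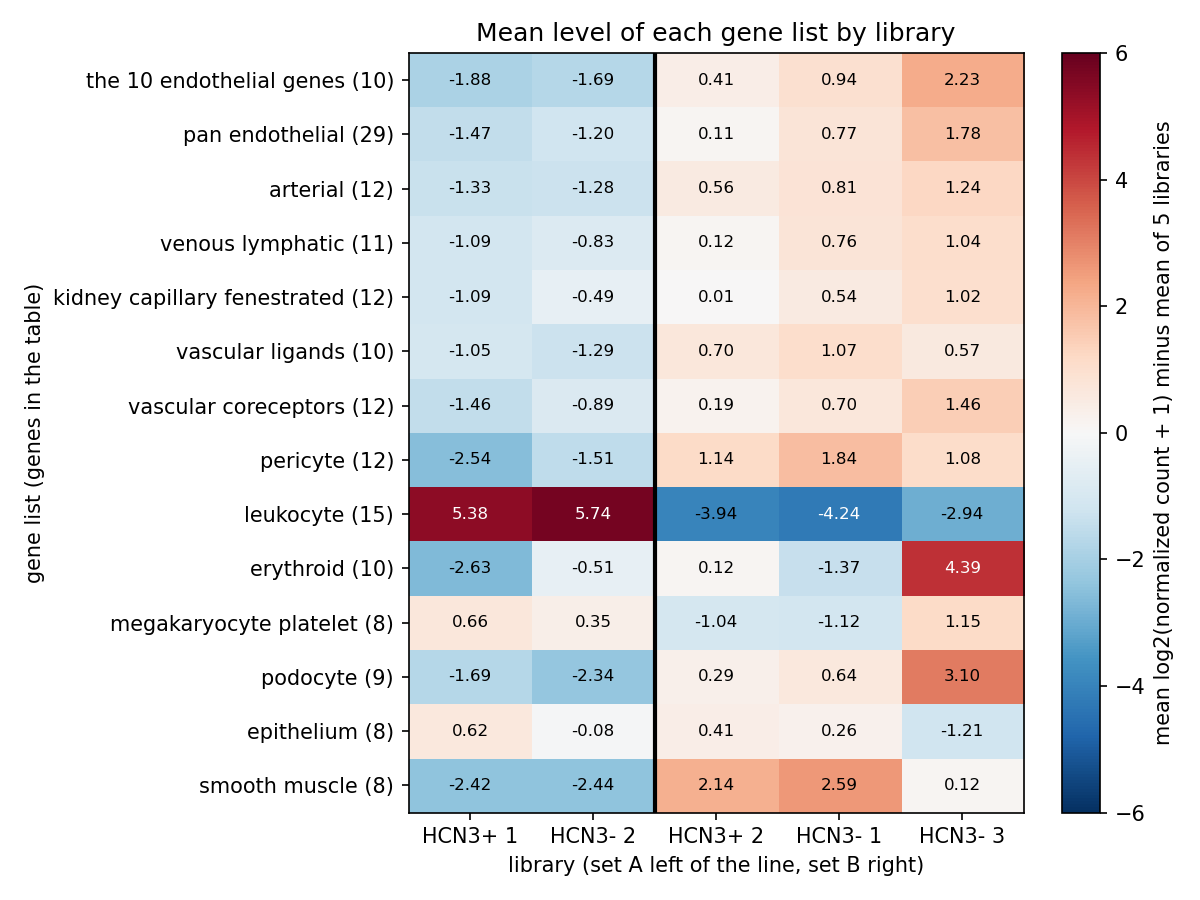
Mean log2(normalized count + 1) of each gene list (rows, with the number of genes in the table) by library (columns), as the difference from the list's average over the 5 libraries. Red marks higher and blue lower values, and the black line separates set A from set B. The 10 endothelial genes lie at -1.88 and -1.69 in set A and at 0.41, 0.94 and 2.23 in set B, and the leukocyte list lies at 5.38 and 5.74 in set A.

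Markers of several other cell types, though not of all, changed with the same division of the libraries. Of 15 leukocyte markers 15 passed as higher in set A. Their summed normalized count was 466645 and 637993 in HCN3+ 1 and HCN3- 2 and 1188 to 3112 in set B, and none was at 0 in any library. Csf1r, the receptor of macrophage growth factor, was at 92160 and 139878 in set A and 422 to 546 in set B, and C1qa at 10266 and 16832 against 1.48 to 4.45. Fcer1g and the fractalkine receptor gene Cx3cr1 had log2 fold changes of -8.21 (SE 0.38) and -10.76 (SE 0.42). The leukocyte list took 1.35% and 1.78% of the gene reads in set A, as against 0.0225% and 0.0235% for the 10 endothelial genes. The part of leukocytes in the endothelial difference was not tested.

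Of the other cell types, 10 of 12 pericyte markers passed as higher in set B (DESeq2 called 11, edgeR 9 and limma-voom 7). Pdgfrb, the receptor of pericytes, had a log2 fold change of 4.10 (SE 0.29), the channel genes Kcnj8 and Abcc9 had 5.14 (SE 0.41) and 3.72 (SE 0.28), and the adhesion gene Mcam, which endothelial cells also carry, had 3.01 (SE 0.27). All 8 smooth muscle markers also passed as higher in set B (median log2 fold change 4.22), including Acta2, Cnn1, Actg2 and Smtn, where DESeq2 and edgeR called 8 of 8 but limma-voom 2. Their summed normalized count was 6331 and 4347 in HCN3+ 1 and HCN3- 2. In set B it was lower in HCN3- 3 than in HCN3+ 2 and HCN3- 1, at 23884 against 95492 and 130838, where the endothelial genes were highest. Of 9 podocyte markers 7 passed as higher in set B, among them Synpo, Wt1, Cdkn1c and Clic5, where DESeq2 called 7, edgeR 6 and limma-voom 2.

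Of 8 epithelial markers, 0 passed between the sets in limma, DESeq2, edgeR or limma-voom, with 0 at an unadjusted p under 0.05 in each, and their median log2 fold change was -0.45. Epcam, for example, was at 8088 and 5062 in set A and 10404, 5926 and 2693 in HCN3+ 2, HCN3- 1 and HCN3- 3. The ratio of endothelial to epithelial reads was therefore not the same over the libraries: the 10 endothelial genes took 0.0225% and the 8 epithelial markers 0.123% of reads in HCN3+ 1, but 0.420% and 0.0390% in HCN3- 3. Of 10 erythroid markers 0 passed in limma between the sets (1 at an unadjusted p under 0.05) and 2 in DESeq2. Alas2 was at 50382 in HCN3- 3, against 87.4 to 3035 in the other libraries. Of 7 platelet and megakaryocyte markers tested, Gp1bb passed as higher in set B, and Pf4, which macrophages can also express, as lower, at 10328 and 21971 in set A and 31.9 to 73.5 in set B.

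By label, the direction of these markers differed between the lists, and none passed the test. The median log2 fold change, HCN3+ over HCN3-, was -1.10 for the podocyte markers (9 of 9 below 0), -0.98 for the pericyte markers (12 of 12) and -2.12 for the erythroid markers (8 of 10). It was 0.88 for the epithelial markers (8 of 8 above 0) and 1.27 for the leukocyte markers (14 of 15 above 0). The smooth muscle markers had 0.08 (4 of 8 below 0) and the platelet and megakaryocyte markers -0.21 (4 of 7 below 0). In limma 0 genes of these lists passed, with 1 epithelial marker at an unadjusted p under 0.05, beside 0.947% of all genes tested. The part of these cell types in the endothelial values by label was not tested.

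The genes with the most similar profile to the endothelial genes were found by the root mean square distance between log2 profiles centred on each gene's mean over the 5 libraries, among 12873 genes with a mean of at least 100. The 10 nearest were Rgcc, Esm1, Foxc2, Slc9a3r2, She, Aplnr, Rasip1, Bcl6b, Sox18 and Gimap5, at distances of 0.125 to 0.168. Of these, 6 were on the endothelial lists, Rgcc, Esm1, She, Aplnr, Rasip1 and Sox18, and 18 of the nearest 50 were. These lists held 66 of the genes compared. Aplnr, the apelin receptor, had the highest counts of the 10, with 1171 and 1596 in set A and 6650, 9745 and 27660 in HCN3+ 2, HCN3- 1 and HCN3- 3. Among the endothelial genes themselves, Kdr lay closest to the mean profile of the other 9, at 0.173, and Cdh5 and Tek farthest, at 0.503 each. The 5 libraries share the large division into sets, so a small distance describes these libraries and not a wider relation.

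**Figure D4:**
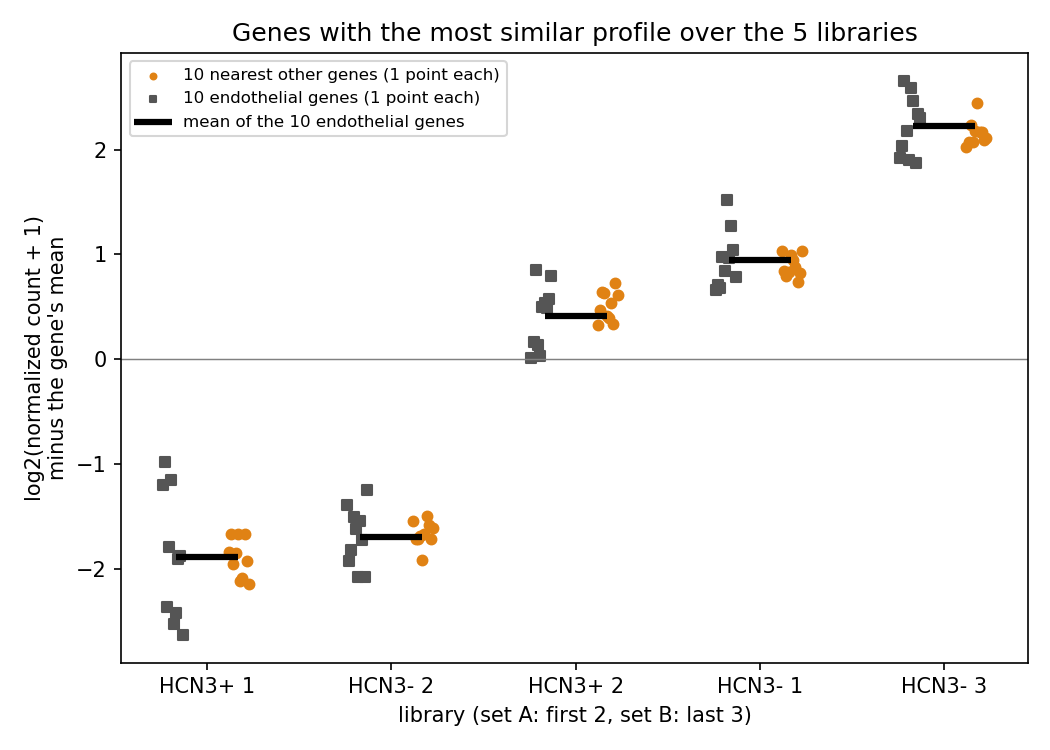
Log2(normalized count + 1) minus the gene's own mean over the libraries (vertical axis) in each library (horizontal axis), for the 10 endothelial genes (grey squares) and the 10 nearest other genes (orange circles). The black bar is the mean of the 10 endothelial genes, from -1.88 in HCN3+ 1 to 2.23 in HCN3- 3, and the orange points lie close to it in every library.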

How the data were processed

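Libraries were made from RNA of sorted cells with a Clontech cDNA kit and Nextera XT, per the labels' protocols. The submitters' processing notes name TopHat2 2.0.11, HTSeq 0.6.1p2, DESeq 1.18.0 and mm10. The annotation used for counting is not given here. For each gene the authors deposited signal values per library, which are read counts divided by a size factor, with a fold (ratio), a log2 fold change, and p-values for sets A and B per the file headers. Strand-specific counting is not stated, so antisense reads cannot be told apart.

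Each column was divided by its lowest non-zero value, which gave whole reads for 100% of values (tolerance 0.01). The 3 summary rows of the read counter were left out. The libraries differed by more than sampling noise (98.3 to 743 as chi-square over degrees of freedom). The main test was limma 3.58.1 (trend, R 4.3.3) on log2(normalized count + 1) for 16579 genes (mean of 5 or more), adjusted by Benjamini-Hochberg. On this scale the change of low genes is understated. Alternatives were edgeR 4.0.16, DESeq2 1.42.0 and limma-voom on recovered reads, TMM scaling, pseudocounts of 0.5 and 5, other filters on low values, leaving out each library, and a replicate block. The scripts were tested on simulated data.

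The 10 genes, the lists and the tests were chosen with earlier results of these data known. Named genes were the 10 members, Hcn3, up to 4 called members of each list by p or otherwise the 3 most abundant, and the 10 nearest profiles. One gene that the rule names is not reported here. Genes named outside that rule are Lyl1, Prox1, Cd36, Slc14a1, S1pr1 and Vegfa.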

Additional observations from a re-analysis of the deposited data

How the results depend on the processing

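Over the alternatives run, the 10 endothelial genes kept their direction between set A and set B in 140 of 140 results, of which 26 lost the call. By label, 144 of 150 kept direction and call status, and 6 turned in sign, none of them called. Leaving out 1 library gave log2 fold changes by label of -2.37 to 0.016 for Emcn, -2.34 to 0.14 for Plvap, -3.24 to 0.18 for Sox17 and -2.86 to 0.34 for Cldn5, the value above 0 coming without HCN3+ 1, and of -1.78 to 0.20 for Cdh5, above 0 without HCN3- 3. The cause of these turns was not tested. With the replicate block Cdh5 was also at 0.20: HCN3- 3 has no partner number, so by construction the block gives the estimates obtained without it. Between the sets, limma-voom called 5 of the 10 genes, where it called 15.7% of all genes. With the label as a covariate, chosen after the data were seen, limma called 9 of the 10 and 2793 of all 16579 genes. Leaving out 1 library gave 0 to 10 of the 10 genes and 1241 to 2829 genes in all, against 3396; fewer samples entered these fits. By label, DESeq2 called 10 genes in all, 0 of them endothelial, against 0 in limma.

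The labels give replicate numbers 1 and 2 in both groups. Deviations from the group means correlated at -0.534 and -0.686 within the numbers, but the deviations of the 2 HCN3+ libraries mirror each other, so the check cannot show whether the numbers pair the samples. The replicate block called 0 genes by label, and 26 had an unadjusted p under 0.05. The lowest count of these genes in any library was 79 reads.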
